A study of Rattus norvegicus with 6 samples.

Results

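The genes described here were the interleukin, tumor necrosis factor (TNF), Toll-like receptor (TLR) and NF-kB genes of the rat inner medulla (IM) tip. They were taken by name from the table of normalized counts, as rows whose gene name began with Il and a digit, Tnf, Tlr and a digit, or Nfkb, together with Rela, Rel, Myd88, Irak1, Irak4 and Traf6. Relb and Traf2, which the rule also names, were not analysed here. The rule gave 115 of 27321 rows. Of these, 110 were named for a single gene, 1 merged Il11ra1 with its neighbour Ccl27, and 4 joined a pair of names with a comma and lay between genes. Among the members, 59 had a mean of at least 5 normalized counts over the 6 libraries and were tested, and 56 did not reach that mean.

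RNA was sequenced from 3 control libraries, from male Sprague-Dawley rats given vehicle (citrate buffer), and 3 STZ libraries, from rats of the same strain, sex and age given streptozotocin at 62.5 mg/kg. Both were injected into the tail vein at 3 months of age, and tissue was taken 15 days later. Streptozotocin is toxic to pancreatic beta cells, so the model is one of insulin lack with no genetic change, and the blood glucose used to establish diabetes was not analysed here. The libraries were made to compare gene expression of the inner part of the medulla, where urine is concentrated, between diabetic and control rats. The labels number the libraries 1 to 3 in each group and do not say that each came from a single rat, so p-values measure the spread between these libraries.

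Interleukins are secreted signals, most of which bind receptors built of paired chains, while TNF family ligands are trimers, secreted or on the cell membrane, that cluster their receptors. Toll-like receptors bind parts of microbes and of damaged cells. Interleukin 1 family receptors and most Toll-like receptors signal through the adaptor Myd88, the kinases Irak1 and Irak4 and the ubiquitin ligase Traf6, which leads to the breakdown of IkB proteins such as Nfkbia. NF-kB dimers of subunits such as Rela and Nfkb1 then enter the nucleus and switch on genes of inflammation and cell survival, Nfkbia among them. Most interleukin receptors of the cytokine receptor family signal through JAK kinases and STAT factors instead. In the kidney these signals are carried by tubule cells, endothelium and interstitial cells as well as by leukocytes.

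Levels are normalized counts, the reads of a gene divided by a size factor per library. They are not divided by gene length, so levels are compared between libraries and not between genes. Each library held between 3412311 and 5575171 reads on features, a read was worth 0.763 to 1.11 normalized counts, and 3 reads or fewer were treated as the floor of detection. Differences are log2 ratios of STZ to control after 1 was added to each normalized count, so the fold of a low gene is understated. Adjusted p-values are those of limma with the Benjamini-Hochberg procedure over all 13486 features tested. Markers of the collecting duct were detected in every library, with summed levels of 11100 to 19300 in control and 19000 to 36200 in STZ libraries, while proximal tubule markers summed to at most 63.4. Control replicate 1 stood apart, with summed leukocyte markers of 163 against 329 to 452 in the other libraries and macrophage markers of 530 against 1470 to 2730. Lane 3 held every control library, and STZ replicates 1, 2 and 3 were on lanes 7, 6 and 8, which means that sequencing lane and treatment cannot be told apart.

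Of the 59 members tested, 3 passed an adjusted p of 0.05, a share of 5.08% against 2.1% of all features tested. All 3 were lower in STZ libraries, Il15, Tnfsf15 and Tlr6, where 0.927% of all features fell. None of the members rose, against 1.17% of all features. At an unadjusted p under 0.05, limma gave 11 members, 5 higher and 6 lower, a share of 18.6% of the members against 14.7% of all features. That 14.7% is the share to set beside the unadjusted counts of each role and list below. The groups did not overlap for 12 members, 5 higher and 7 lower in STZ libraries, a share of 20.3% that was the same as over all features at 20.3%. The median log2 fold change of the members was −0.01, with 28 positive and 31 negative, and that of all features was 0.01. Their median standard error was 0.35 against 0.29 for all features. Without control replicate 1, 2 members passed, Il15 and Tnfsf15, and 0 passed when limma was run without its intensity trend.

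**Figure D1:**
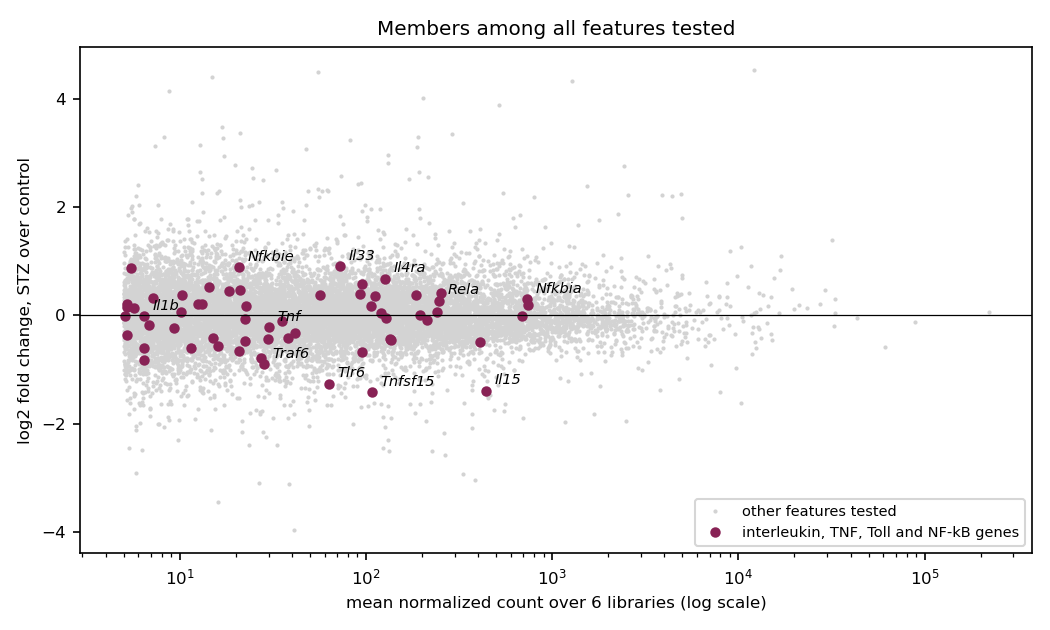
The mean normalized count over 6 libraries (horizontal, log scale) is plotted against the log2 fold change of STZ over control (vertical) for the 59 members tested (dark points) and the other features tested (grey points). Il15, Tnfsf15 and Tlr6 lie lowest among the members, at −1.39, −1.42 and −1.26, while Il33 at 0.91 and Nfkbie at 0.89 lie highest.

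Among the interleukin ligands, antagonists and binding proteins, 32 were members, 10 were tested and 1, Il15, fell. Il15 encodes a cytokine that maintains natural killer cells and memory T cells, and that kidney tubule cells also make. Control replicates 1, 2 and 3 had 651, 747 and 532 normalized counts of Il15 and STZ replicates 1, 2 and 3 had 259, 251 and 218. Every STZ library was below every control library, and the STZ libraries lay close together. The mean went from 643 ± 108 to 243 ± 21.9 (SD, n = 3 each), with a log2 fold change of −1.39 with a standard error of 0.19 (adjusted p = 0.00548 by limma), 2.63-fold lower in STZ libraries. The call held with each library left out, where limma's adjusted p ran from 0.0033 to 0.0313. It was lost without the intensity trend (0.084) and with no filter on low values (0.0615), with a range of 0.00104 to 0.084 over 16 alternatives. On rn4 the gene spans 27432934 to 27499255 of chromosome 19.

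Il33, an alarmin of the interleukin 1 family stored in the nuclei of epithelial and endothelial cells, had 51.3, 49.6 and 46.7 normalized counts in control and 101, 69.2 and 116 in STZ libraries. The control libraries were alike and the STZ libraries spread, with no overlap between the groups. Its log2 fold change of 0.91 had a 95% interval of 0.38 to 1.45 and an adjusted p of 0.0875, which did not pass. Il16, a chemoattractant of CD4+ T cells made as a long precursor, had 32.8, 29.7 and 41.2 in control and 16.7, 14.8 and 29.1 in STZ libraries. Its groups were separated only by the gap between 29.1 and 29.7, and the log2 fold change of −0.79 did not pass (adjusted p = 0.279 by limma).

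The classical inflammatory interleukins were close to the floor. Il1b, the secreted form of interleukin 1 that the inflammasome cleaves, had 5.13, 9.15 and 4.45 normalized counts in control and 2.79, 9.89 and 7.03 in STZ libraries, with a log2 fold change of −0.01 (95% interval −1.42 to 1.40). Il18, the other cytokine cleaved by the inflammasome, had 1.03, 10.7 and 6.68 in control and 0.929, 3.96 and 8.03 in STZ libraries, a log2 fold change of −0.36 (95% interval −2.38 to 1.66). In both groups replicate 1 was lowest for Il18, and both genes overlapped between the groups. Their intervals span more than a doubling in either direction, so a change of that size was not detectable at this depth.

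Il6, the main inducer of the acute-phase response, had 0, 4 and 0 reads in control and 1, 0 and 1 in STZ libraries. Il10, an anti-inflammatory cytokine, had 0, 1 and 0 reads in control and 1, 0 and 2 in STZ libraries. Neither was tested, and no fold is given for levels at the floor. In all, 9 of the 32 members of the ligand group were at or under 3 reads in every library and 7 were over 3 reads in every library. Excluding Il15, the log2 fold changes of the tested ligands ran from −0.79 to 0.91, and the median of all 10 was 0.02 with 5 positive and 5 negative.

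Of 6 TNF ligands, 3 were tested and 1 fell. Tnfsf15, also called TL1A or VEGI, is a ligand made largely by endothelial cells that restrains vessel growth and costimulates T cells through the receptor Tnfrsf25. It had 158, 142 and 173 normalized counts in control and 56.6, 58.4 and 59.2 in STZ libraries. The STZ libraries were nearly equal and all lay far below the lowest control library. The mean went from 157 ± 15.3 to 58.1 ± 1.32 (SD, n = 3 each), with a log2 fold change of −1.42 with a standard error of 0.19 (adjusted p = 0.00548 by limma), 2.67-fold lower in STZ libraries. Leaving out each library in turn kept limma's adjusted p between 0.0115 and 0.0279, and the call was lost only without the intensity trend (0.0583, range 0.00265 to 0.0583 over 16 alternatives). Tnfsf15 lies on chromosome 5 at 80700179 to 80716158 of rn4.

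Tnf, the ligand that gives the family its name and a product of activated macrophages, had 29.7, 33.6 and 27.8 normalized counts in control and 26, 50.4 and 13.1 in STZ libraries. The control libraries were alike while STZ replicate 2 lay above and STZ replicates 1 and 3 below all of them. The log2 fold change of −0.22 had a 95% interval of −1.14 to 0.70. Tnfsf10, also called TRAIL, which triggers apoptosis through death receptors, had 221, 307 and 190 in control and 260, 247 and 227 in STZ libraries. All of its STZ libraries lay within the control range, with a log2 fold change of 0.06 (95% interval −0.41 to 0.52).

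**Figure D2:**
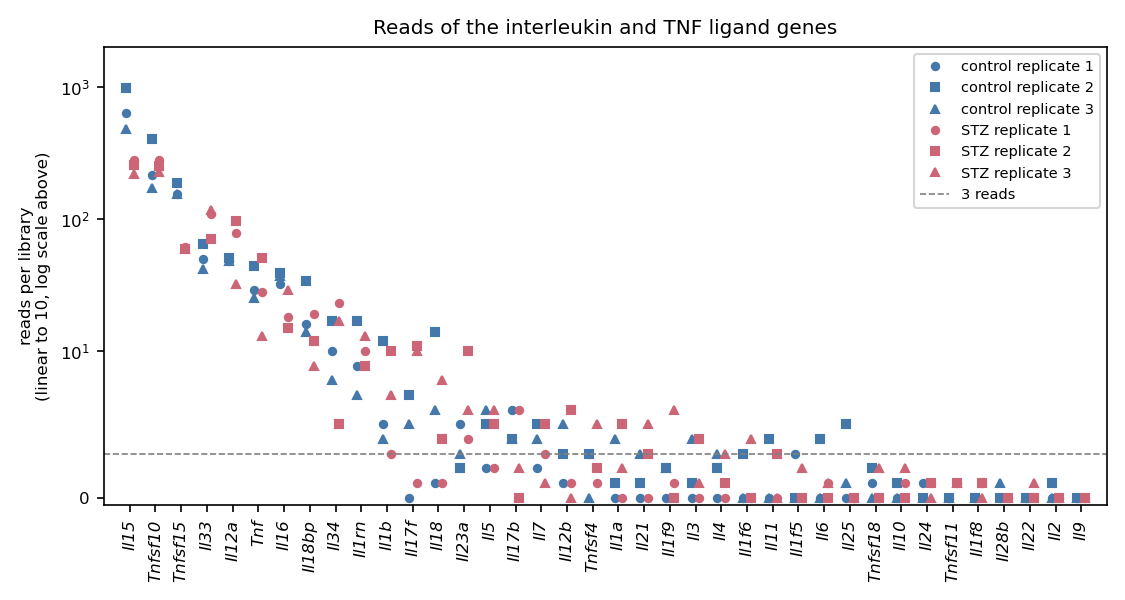
Reads per library (vertical, linear to 10 and log above) of the interleukin and TNF ligand members, ordered by level, with the 3 control libraries in blue and the 3 STZ libraries in red. The groups are separated for Il15 and Tnfsf15, with fewer STZ reads, and also for Il33, with more, and for Il16, with fewer, while most ligands to the right of the plot, Il6 and Il10 among them, lie around the dashed line of 3 reads.

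Among 10 Toll-like receptors, 6 were tested and 1 fell. Tlr6 forms a heterodimer with TLR2 that recognises bacterial diacylated lipopeptides. It had 87.1, 99.9 and 81.3 normalized counts in control and 39, 41.5 and 30.1 in STZ libraries. Replicate 3 was lowest in both groups, and the groups were separated by the gap between 41.5 and 81.3. The mean went from 89.4 ± 9.54 to 36.9 ± 6.0 (SD, n = 3 each), with a log2 fold change of −1.26 with a standard error of 0.23 (adjusted p = 0.0206 by limma), 2.40-fold lower in STZ libraries. The call was lost without control replicate 1 (limma adjusted p = 0.0577), control replicate 2 (0.113), STZ replicate 2 (0.055) or STZ replicate 3 (0.0667), and without the filter (0.089) or the trend (0.109), with a range of 0.0123 to 0.113 over 16 alternatives. Tlr6 lies on chromosome 14 at 46098196 to 46100686 of rn4, beside its close paralog Tlr1, and reads that map to both were not counted, since only uniquely mapped reads entered the table.

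The partner receptor Tlr2 had 26.7, 40.4 and 43.4 normalized counts in control and 39.9, 30.7 and 31.1 in STZ libraries, all STZ values within the control range, with a log2 fold change of −0.10 (95% interval −0.71 to 0.52). Tlr4, the lipopolysaccharide receptor, had 23.6, 35.8 and 43.4 in control and 30.6, 15.8 and 30.1 in STZ libraries. Its groups overlapped, with a log2 fold change of −0.43 (95% interval −1.19 to 0.34). Tlr3, an endosomal receptor for double-stranded RNA that signals without Myd88, had 101, 114 and 136 in control and 75.2, 93 and 55.2 in STZ libraries. All STZ values of Tlr3 lay below the control values, and its log2 fold change of −0.67 did not pass (adjusted p = 0.211 by limma). Across the 6 tested receptors 5 log2 fold changes were negative and 1 was positive, with a median of −0.33.

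**Figure D3:**
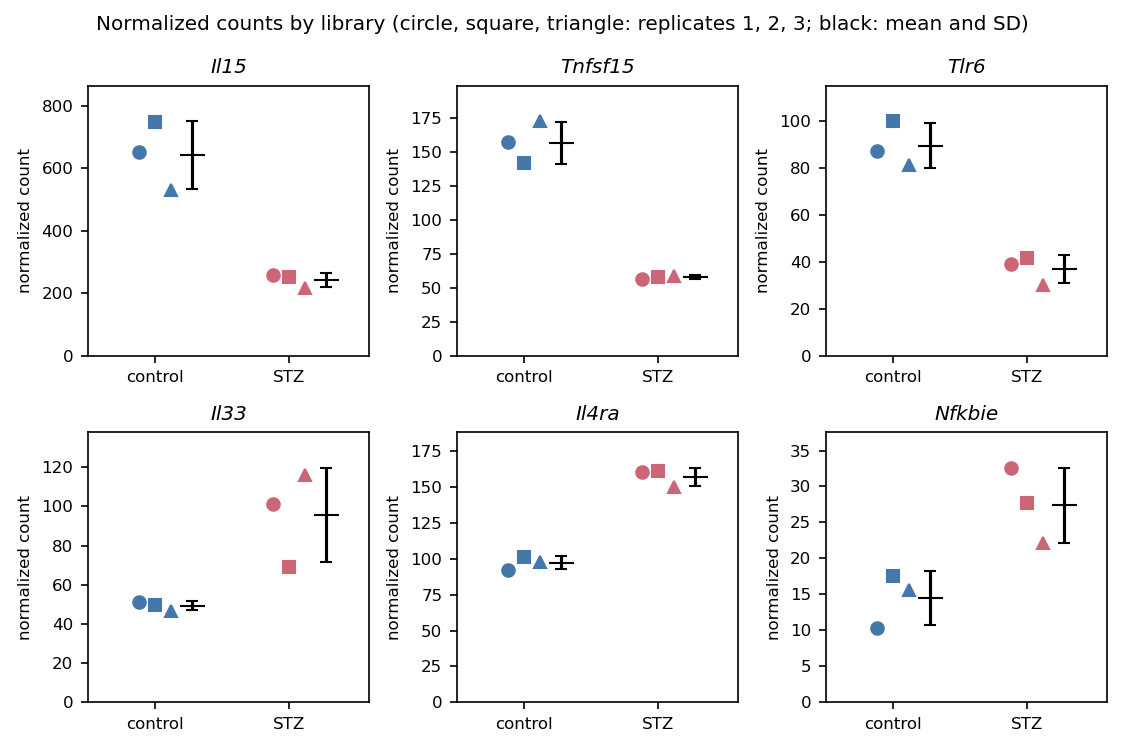
Normalized counts of 6 members in each library (circles, squares and triangles for replicates 1, 2 and 3), with the group mean and SD in black and axes that start at 0. Il15, Tnfsf15 and Tlr6 in the upper row fell in STZ libraries, and Il33, Il4ra and Nfkbie in the lower row had all 3 STZ values above the control values without passing the adjusted threshold.

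The promoter windows of the 3 genes that fell are shown because they share their direction in STZ libraries. Each is the 300 bases from 250 before to 50 after the RefSeq start, on the gene's own strand, on build GRCr8, which is later than that of the deposited table. Capitals mark matches to a motif, searched on both strands: the interferon-stimulated response element (ISRE) core GAAANNGAA, the STAT site (GAS) core TTCNNNGAA and the kappa-B consensus that NF-kB binds. The windows lie at chr19:42544456-42544755 for Il15 (plus strand), chr5:82171609-82171908 for Tnfsf15 (minus strand) and chr14:43715559-43715858 for Tlr6 (plus strand).
Il15: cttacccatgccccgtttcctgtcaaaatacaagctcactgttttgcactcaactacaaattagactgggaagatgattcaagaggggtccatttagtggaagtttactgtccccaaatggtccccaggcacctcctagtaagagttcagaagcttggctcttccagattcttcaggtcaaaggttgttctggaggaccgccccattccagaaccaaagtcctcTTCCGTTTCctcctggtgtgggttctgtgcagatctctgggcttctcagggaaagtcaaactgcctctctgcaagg
Tnfsf15: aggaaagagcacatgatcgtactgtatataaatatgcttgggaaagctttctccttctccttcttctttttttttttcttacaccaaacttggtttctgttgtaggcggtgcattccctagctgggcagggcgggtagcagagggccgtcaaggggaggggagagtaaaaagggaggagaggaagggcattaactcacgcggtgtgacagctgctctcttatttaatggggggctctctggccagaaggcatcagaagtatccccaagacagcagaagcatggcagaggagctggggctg
Tlr6: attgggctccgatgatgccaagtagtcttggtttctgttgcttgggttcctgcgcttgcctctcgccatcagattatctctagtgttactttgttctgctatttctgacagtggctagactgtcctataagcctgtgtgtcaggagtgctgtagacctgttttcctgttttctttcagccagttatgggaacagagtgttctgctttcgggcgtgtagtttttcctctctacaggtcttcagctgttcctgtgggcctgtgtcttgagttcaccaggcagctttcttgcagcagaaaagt
The Il15 window held an ISRE core on the minus strand whose first base lay at position −26 from the start, and the other 2 windows held none of the 3 motifs. The ISRE core was in 10.3% of the 27457 genes with a window and in 12.5% of the 88 members that had one. The GAS core was in 9.39% of all genes and in 9.09% of those members. A match describes letters and is not a measured binding site.

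Members grouped by name alone as interleukin receptor chains numbered 32. Of these 17 were tested and none passed limma's adjusted threshold, with 2 at an unadjusted p under 0.05. Their log2 fold changes ran from −0.61 to 0.68 with 8 positive and 9 negative and a median of −0.07, and the lowest adjusted p was 0.0917. That was Il4ra, the chain shared by the receptors of interleukins 4 and 13, with 92.3, 101 and 98 normalized counts in control and 160, 161 and 150 in STZ libraries. Both groups were tight and did not overlap, with a log2 fold change of 0.68 and a 95% interval of 0.28 to 1.09. Il12rb2, a signalling chain of the interleukin 12 receptor that acts through STAT4, had 212, 239 and 198 in control and 298, 279 and 288 in STZ libraries. The STZ values of Il12rb2 all lay above the control values, with a log2 fold change of 0.42 that did not pass (adjusted p = 0.293 by limma).

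Il10rb, a chain shared by the receptors of interleukins 10, 22 and 26 and of type III interferons, had 211, 255 and 189 in control and 261, 193 and 170 in STZ libraries, with a log2 fold change of −0.08 (95% interval −0.56 to 0.39). Il1rap, the accessory chain with which the receptors of interleukins 1 and 33 signal, had 160, 167 and 142 in control and 168, 85.1 and 101 in STZ libraries. STZ replicate 1 was the highest of all 6 libraries for Il1rap and STZ replicates 2 and 3 were the lowest, with a log2 fold change of −0.46 (95% interval −1.02 to 0.10).

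Of 13 TNF receptors 9 were tested and none passed, with 1 at an unadjusted p under 0.05 by limma. They had log2 fold changes from −0.50 to 0.58, 5 positive and 4 negative. Tnfrsf11b encodes osteoprotegerin, a secreted decoy receptor for the bone-resorbing ligand RANKL and for TRAIL. It had 622, 423 and 390 normalized counts in control and 428, 322 and 263 in STZ libraries, where only STZ replicate 1 reached the control range (log2 fold change −0.50, 95% interval −1.03 to 0.03). Tnfrsf21, death receptor 6, had 147, 158 and 179 in control and 178, 206 and 245 in STZ libraries. Its highest control value lay just above its lowest STZ value, with a log2 fold change of 0.37 (95% interval −0.06 to 0.80).

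The 3 TNF-alpha-induced proteins were all tested and none passed, with 0 at an unadjusted p under 0.05 by limma. Tnfaip8, a regulator of cell survival and lipid signalling, had 863, 713 and 509 normalized counts in control and 923, 776 and 666 in STZ libraries, a log2 fold change of 0.20 (95% interval −0.30 to 0.70). Tnfaip1, an adaptor for a ubiquitin ligase that acts on RhoA, had 763, 721 and 583 in control and 685, 737 and 619 in STZ libraries, with all STZ values inside the control range. Its log2 fold change was −0.01, and the 95% interval of −0.42 to 0.39 was among the narrower ones of the members named here.

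The 4 adaptors and kinases that carry the Toll and interleukin 1 signal were all tested and none passed, with 1, Traf6, at an unadjusted p under 0.05 by limma. Myd88 had 198, 266 and 124 normalized counts in control and 232, 216 and 129 in STZ libraries. Replicate 3 was lowest in both groups and the ranges nearly coincided, with a log2 fold change of 0.00 (95% interval −0.67 to 0.67). Traf6, the ubiquitin ligase that activates the kinase TAK1, had 40, 45.8 and 26.7 in control and 18.6, 17.8 and 21.1 in STZ libraries. All STZ values of Traf6 lay below the control values, and its log2 fold change of −0.90, with a 95% interval of −1.56 to −0.25, did not pass (adjusted p = 0.165 by limma).

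Of the NF-kB subunits, Rela and Nfkb1 were tested and neither passed, with 0 at an unadjusted p under 0.05 by limma. Rela, the p65 subunit that activates transcription, had 259, 211 and 204 normalized counts in control and 239, 302 and 270 in STZ libraries, a log2 fold change of 0.27 (95% interval −0.15 to 0.69). Nfkb1, the precursor of the p50 subunit, had 78.9, 102 and 112 in control and 97.5, 141 and 139 in STZ libraries, a log2 fold change of 0.35 (95% interval −0.15 to 0.86). In both genes 2 STZ libraries, replicates 2 and 3, lay above every control library and replicate 1 did not. Nfkb2, the precursor of p52 in the alternative pathway, had 4.10, 4.58 and 6.68 in control and 6.5, 4.95 and 3.01 in STZ libraries. Rel, the lymphoid subunit c-Rel, had 1.03, 3.05 and 5.57 in control and 3.71, 4.95 and 7.03 in STZ libraries. Neither reached the mean of 5 that was required for a test, Nfkb2 at 4.97 only just, beside Tnfrsf18 at 4.97 outside and Tnfrsf8 at 5.06 and Il27ra at 5.18 inside.

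Of 7 members grouped by name alone as NF-kB inhibitors and relatives, 5 were tested and none passed. Among them 1, Nfkbie, had an unadjusted p under 0.05 by limma. Nfkbia, the inhibitor IkB-alpha that NF-kB itself induces, had 739, 690 and 486 normalized counts in control and 1100, 921 and 452 in STZ libraries. STZ replicates 1 and 2 were the highest of the 6 libraries and STZ replicate 3 was the lowest, with a log2 fold change of 0.30 (95% interval −0.38 to 0.98). Nfkbie, IkB-epsilon, had 10.3, 17.5 and 15.6 in control and 32.5, 27.7 and 22.1 in STZ libraries. Its groups did not overlap, and the log2 fold change of 0.89, with a 95% interval of 0.15 to 1.64, did not pass (adjusted p = 0.232 by limma).

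**Figure D4:**
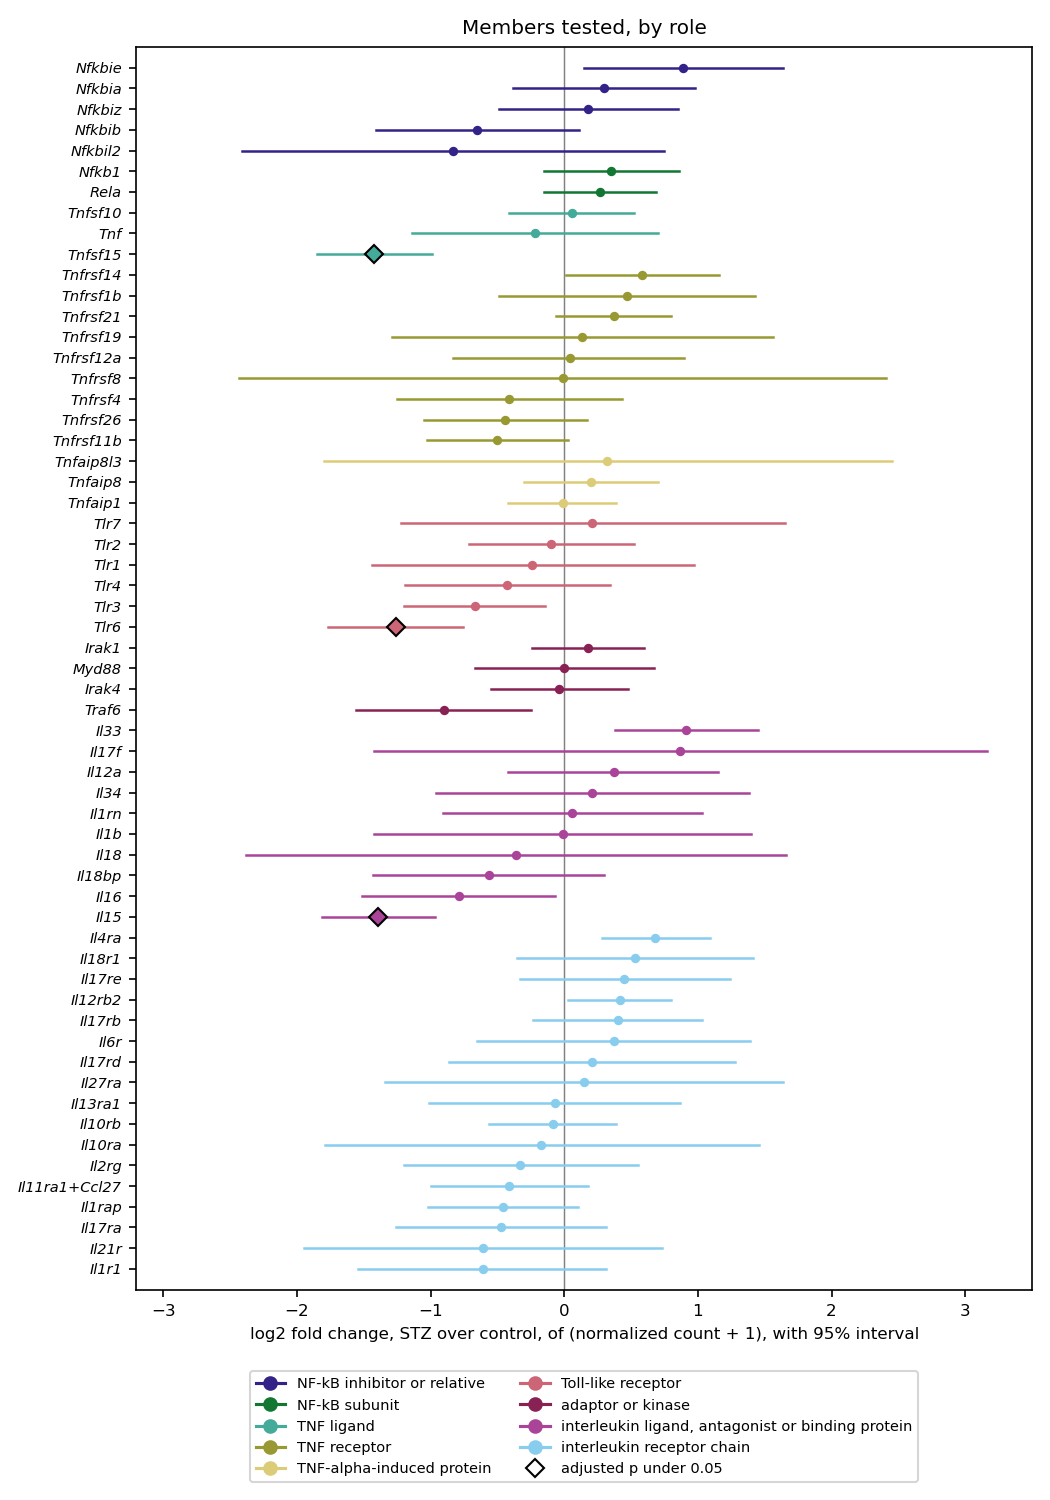
Log2 fold change of STZ over control with its 95% interval (horizontal) for each of the 59 members tested, grouped by role in color and ordered by fold change within a role, with diamonds for an adjusted p under 0.05. The 3 diamonds, Il15, Tnfsf15 and Tlr6, lie left of 0 in 3 different roles, and the intervals of both NF-kB subunits tested include 0.

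The promoters of Nfkbia and Nfkbie, 2 of the 7 inhibitors and relatives, are shown for the kappa-B consensus, since both are known NF-kB targets. Not shown were the other tested ones with a window, Nfkbiz, which held the consensus, and Nfkbib, which did not. The windows are the same 300 bases on GRCr8, at chr6:78597023-78597322 for Nfkbia and chr9:22947823-22948122 for Nfkbie, both on the minus strand, with matches to the 3 motifs in capitals.
Nfkbia: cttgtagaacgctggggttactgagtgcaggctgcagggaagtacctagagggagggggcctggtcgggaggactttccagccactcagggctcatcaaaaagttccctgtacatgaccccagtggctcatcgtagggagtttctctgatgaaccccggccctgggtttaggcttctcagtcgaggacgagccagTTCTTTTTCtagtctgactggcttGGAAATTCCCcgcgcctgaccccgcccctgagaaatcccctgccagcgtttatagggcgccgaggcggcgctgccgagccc
Nfkbie: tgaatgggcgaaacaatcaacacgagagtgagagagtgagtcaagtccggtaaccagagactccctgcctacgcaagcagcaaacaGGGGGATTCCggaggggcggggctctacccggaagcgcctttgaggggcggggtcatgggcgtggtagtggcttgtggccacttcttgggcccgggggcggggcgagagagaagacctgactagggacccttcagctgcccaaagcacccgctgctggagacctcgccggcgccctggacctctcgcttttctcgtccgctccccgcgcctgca
The kappa-B match began at position −31 from the start in Nfkbia, on the minus strand of the window, and at −164 in Nfkbie, and Nfkbia also held an ISRE core at −55. Of the 9 NF-kB genes with a window, 6 held the kappa-B consensus, which were Nfkb1, Nfkb2, Nfkbia, Nfkbie, Nfkbiz and Rel. Over all members it was in 16 of 88 windows, or 18.2%, against 8.16% of all genes with a window. None of the 16 was among the 3 genes that fell, which are too few to set against these shares.

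Other genes of these pathways were counted from 4 lists. The NF-kB relay list mixes receptor partners, kinases, adaptors, ubiquitin ligases and inhibitors, so its median gives no direction of signalling. Of this list 34 of 42 genes were found and 33 were tested. None passed by limma, with 4 higher and 2 lower at an unadjusted p under 0.05, 18 positive and 15 negative log2 fold changes and a median of 0.13. Of the JAK-STAT list 25 of 29 genes were found, 20 were tested and none passed (median −0.04), with 3 higher and 1 lower at an unadjusted p under 0.05. Of the inflammasome list 8 of 10 genes were found and tested and none passed (median 0.10), with 1 lower at an unadjusted p under 0.05. The share over all features was 2.1% at an adjusted p under 0.05 and 14.7% at an unadjusted p under 0.05 by limma. Genes at or under 3 reads in all libraries, named after their values were seen, were Ly96, the lipopolysaccharide-binding partner of TLR4, and Socs1 and Socs2, feedback inhibitors of JAK kinases.

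Of 32 known NF-kB targets 28 were found, 21 were tested and 3 passed, 2 higher and 1 lower. The 21 had 7 positive and 14 negative log2 fold changes, with a median of −0.31. NF-kB activity was not measured and Cxcl10 is also induced by interferon, so this median gives no direction of NF-kB signalling. At an unadjusted p under 0.05, limma gave 3 higher and 7 lower. Over all 13486 features tested it gave 1045 higher and 943 lower, or 14.7%, and 2.1% passed the adjusted threshold. Ccl20, a chemokine that draws cells bearing CCR6 to epithelia, had 5.13, 3.05 and 4.45 normalized counts in control and 39, 44.5 and 23.1 in STZ libraries. It rose by a log2 fold change of 2.78 with a standard error of 0.42 (adjusted p = 0.00839 by limma), from 4 or 5 reads in each control library. Its control mean of 4.21 was under the required mean of 5, so it was tested only because of its STZ mean of 35.5. The call was lost without STZ replicate 2 (limma adjusted p = 0.0737) or with no filter on low values (0.0857). The range was 0.00537 to 0.0857 over 15 alternatives.

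Ier3, an early response gene that affects cell survival, had 242, 153 and 199 normalized counts in control and 456, 358 and 342 in STZ libraries. It rose by a log2 fold change of 0.97 with a standard error of 0.22 (adjusted p = 0.0479 by limma), and every STZ library was above every control library. When libraries were left out, the call was kept only without control replicate 1. It was lost without control replicate 2 (limma adjusted p = 0.202), control replicate 3 (0.0591), STZ replicate 1 (0.148), STZ replicate 2 (0.135) or STZ replicate 3 (0.085). Dropping the intensity trend (limma adjusted p = 0.194) or the filter (0.232) also lost it. It held in 9 of 16 alternatives, with a range of 0.0138 to 0.232.

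Cxcl10, a chemokine for CXCR3-bearing T cells that interferon and NF-kB both induce, had 540, 1430 and 601 in control and 173, 349 and 251 in STZ libraries. Control replicate 2 was far above the other libraries. It fell by 1.64 on the log2 scale with a standard error of 0.36 (adjusted p = 0.0446 by limma), with no overlap between the groups. The call was lost without control replicate 2 (limma adjusted p = 0.134), STZ replicate 1 (0.109), STZ replicate 2 (0.0574) or STZ replicate 3 (0.105). Equal library totals (limma adjusted p = 0.0544), robust moderation (0.0556), no intensity trend (0.213) or no filter (0.371) also lost it. It held in 8 of 16 alternatives, with a range of 0.00222 to 0.371. Cxcl2, Nos2, Bdkrb1 and Havcr1 of the target list were at or under 3 reads in every library.

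Markers of other cell types moved beside these members. Endothelial markers summed to 7100 to 9190 normalized counts in control and 3950 to 4340 in STZ libraries over the 7 of 8 genes found, none of which was at the floor. Emcn had the highest value of the 7 in every library, and without it, a choice made after its values were seen, the sums were 1910 to 2750 and 1890 to 2330 and overlapped. Of the 7 tested, 2 fell, Emcn (6520, 5180 and 4830 against 2250, 2000 and 2040) and Plvap (328, 243 and 266 against 148, 119 and 147), and 1 rose, Vwf (26.7, 51.9 and 64.6 against 103, 227 and 242). Their log2 fold changes were −1.38, −1.01 and 1.97, beside −1.42 for Tnfsf15, −1.39 for Il15 and −1.26 for Tlr6. The remaining endothelial markers did not pass, with log2 fold changes of −0.56 for Cdh5, −0.61 for Tek, 0.55 for Tie1 and 0.04 for Pecam1. Intercalated cell markers also fell, 4 of 4 tested, with sums of 1120 to 2530 in control and 437 to 506 in STZ libraries. Of 3 thick ascending limb markers tested 2 fell, with sums of 1100 to 1890 and 210 to 597, and of 4 urothelial markers 2 rose, with sums of 79.3 to 124 and 420 to 501. All 6 collecting duct markers tested had positive log2 fold changes, with a median of 0.64. None of those 6 passed, and 3 had an unadjusted p under 0.05 by limma. The part of these markers in the values of Il15, Tnfsf15 and Tlr6 was not tested. In whole dissected tissue, fewer cells of a type, less RNA per cell and a difference in what was dissected cannot be told apart.

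**Figure D5:**
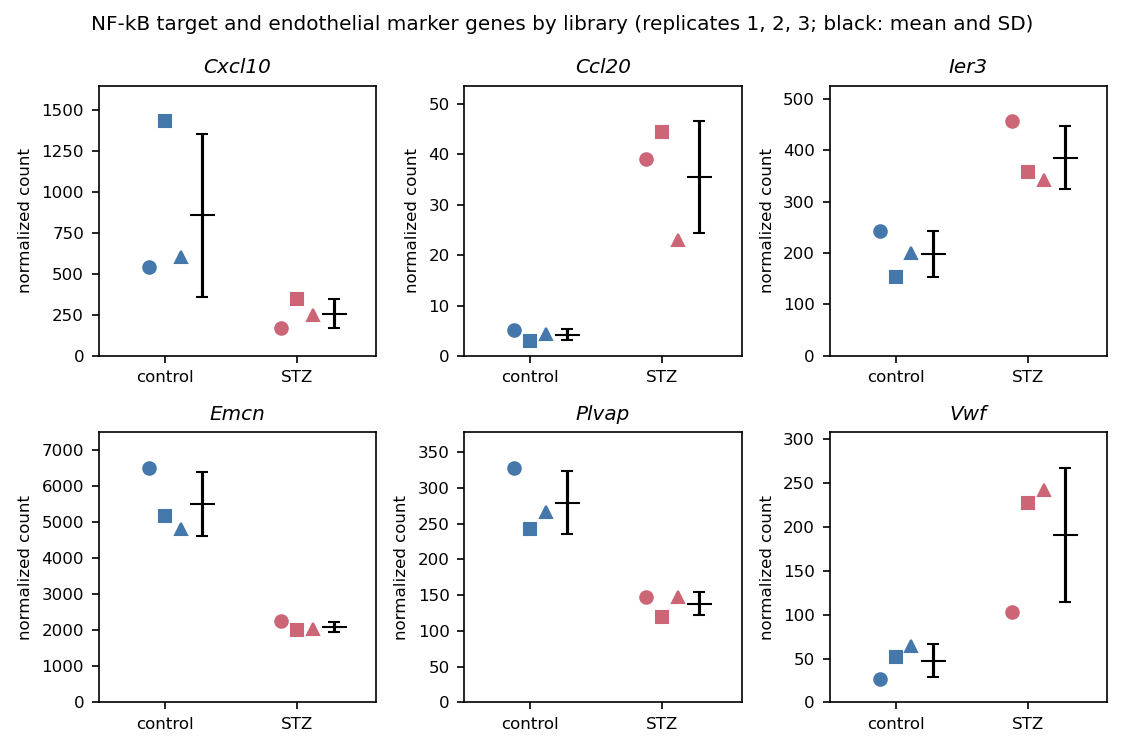
Normalized counts in each library (circles, squares and triangles for replicates 1, 2 and 3) of the 3 NF-kB target genes that passed the test (upper row) and of 3 endothelial markers (lower row), with the group mean and SD in black and axes that start at 0. Cxcl10, Emcn and Plvap are lower and Ccl20, Ier3 and Vwf higher in all 3 STZ libraries, and control replicate 2 stands far above the other control libraries for Cxcl10.

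No leukocyte marker passed limma's test, and 0 had an unadjusted p under 0.05. Summed levels in control and STZ libraries were 163 to 452 and 329 to 445 for genes of all leukocytes, and 530 to 2730 and 1470 to 2710 for macrophages and dendritic cells. T and natural killer cell markers summed to 88.2 to 197 and 92.9 to 163, B cell markers to 346 to 452 and 347 to 365, and neutrophil markers to 25.9 to 30.8 and 22.3 to 56.2. The ranges of the groups overlapped for each of these 5 lists. Of their defining markers Ms4a1, Mpo and Np4 were at or under 3 reads in every library.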

How the data were processed

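RNA from the IM tip of 3 control and 3 STZ libraries was reverse transcribed with a PCR-based kit, fragmented and sequenced by the authors. Per the labels and the study's methods, reads were aligned to rn4 with STAR 2.3.1t, uniquely mapped reads were counted per gene, and DESeq 1.16.0 was used for normalization. Which program counted the reads, and whether it used strand, is not given in the sources used here. The deposited signal is a normalized count, that is, reads divided by 1 size factor per library. In every library 100% of the values were whole multiples of 1 step (within 0.001 of a whole number), which gave between 3412311 and 5575171 reads on features. The steps of STZ replicates 2 and 3, at 0.989 and 1.00 normalized counts, lie close to 1, and whole reads were not accepted as recovered for them, so reads are given only for depth, low levels and the floor, and no count test was run. The cDNA was amplified and had no molecular identifiers, so the floor of 3 reads covers counting error only.

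The groups were compared with limma 3.58.1 (R 4.3.3) after 1 was added to each value and log2 taken. The prior variance followed intensity, 13486 features reached a mean of 5, and adjustment ran over all of them with a threshold of 0.05. A two-sided exact permutation test of 3 against 3 libraries cannot give a p below 0.1, which was its value for each of the 12 members whose groups did not overlap. Of the 27321 rows, 2720 lie between genes and 527 merge overlapping genes. Without strand, reads of a gene and an antisense neighbour cannot be told apart. The fit was first tested on simulated data with planted changes larger than those of the members that passed. The simulation had no lanes and no shared replicate structure, so it does not bear on changes of the size reported.

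The members and all gene lists were chosen with earlier results of these data known. Named genes are members with an adjusted p under 0.05, members with an unadjusted p under 0.05 and groups that do not overlap, the 12 tested members with the highest mean, a fixed list of 14 genes of wide interest, and pathway genes with an adjusted p under 0.05. Other genes named are markers, genes at the floor or the edge of the filter, and genes listed for a motif or replicate order. These were chosen after their values were seen. Promoter windows come from RefSeq on GRCr8 and matched 88 of 115 members by symbol. The alternatives tried were adding 0.5 or 5 in place of 1, a required mean of 1 or 20 or none, scaling by library totals or by quantiles, a prior variance without the trend or with robust moderation, a block for the replicate number, and leaving out each library. Figures were made with Python 3.11.15 and matplotlib 3.10.9. Relb and Traf2 were not analysed here.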

Additional observations from a re-analysis of the deposited data

How the results depend on the processing

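Of the members 3, of all features 283 and of the pathway genes 3 passed under the fit as reported. The number was 0 without the intensity trend, where 31 of all features and 1 pathway gene passed, and limma's adjusted p was 0.084 for Il15, 0.0583 for Tnfsf15 and 0.109 for Tlr6. At an unadjusted p under 0.05 limma with the trend gave 11 members. With no filter on low values 3 members passed, which were Tnfsf15, Il4ra (limma adjusted p = 0.046) and Tnfsf11, a gene with 0 reads in each control and 1 read in each STZ library. There 98 of all features and 0 pathway genes passed, and limma's adjusted p was 0.0615 for Il15 and 0.089 for Tlr6. Quantile normalization gave 501 features and 6 pathway genes. Leaving out each library gave 2 to 3 members, 88 to 352 features and 0 to 4 pathway genes, and the calls of Il15 and Tnfsf15 held each time.

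The control and STZ libraries carry the same replicate numbers, but same-numbered libraries correlated in their deviations with r = 0.395, −0.0612 and 0.323 across 9315 features, which are not independent replicates. Not every pair was over 0.1 and the labels name no shared litter or day, so the numbers were not taken to pair the libraries. For quantitative PCR a figure legend of the study names a paired t-test without saying what was paired. The study's methods name only a Student's t-test. Control replicate 2 correlated best with STZ replicate 1 and STZ replicate 2 with control replicate 3 (r = 0.107 and 0.22), so not every library went best with its own number. With the replicate number as a block 561 features, 8 pathway genes and 3 members passed, and the members were again Il15, Tnfsf15 and Tlr6.

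Of the uncalled members, Il1b had a log2 fold change of 0.01 with a pseudocount of 5 and 0.01 with quantile normalization, against −0.01 as reported. The sign also turned with a library left out, where the log2 fold change ran from −0.26 to 0.05 for Il10rb, −1.10 to 0.24 for Il18, −0.34 to 0.42 for Il1b, −0.30 to 0.26 for Myd88, −0.31 to 0.03 for Tlr2, −0.68 to 0.25 for Tnf, −0.13 to 0.07 for Tnfaip1, −0.01 to 0.37 for Tnfaip8 and −0.09 to 0.25 for Tnfsf10. The cause was not tested. The planned count tests on whole reads were not run, because 2 STZ libraries have a step close to 1. At this depth 9 of 32 interleukin ligand genes were at or under 3 reads in every library, and no change could be read for them.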

Other observations

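Among the 56 members that were not tested, 25 were at or under 3 reads in all 6 libraries and 31 were over 3 reads in at least 1 library. In 4 of the 56, singled out after their values were seen, the groups did not overlap, which was 7.14% of them against 4.19% of all 13835 features that were not tested. These shares are not at like levels. A mean of 1 was reached by 92 of the 115 members against 18477 of the 27321 rows. Tnfrsf18, the costimulatory receptor GITR of T cells, had 6.15, 6.10 and 7.79 normalized counts in control and 2.79, 3.96 and 3.01 in STZ libraries. Nfkbil1, a gene of the major histocompatibility region, had 7.18, 6.10 and 5.57 in control and 4.64, 0.989 and 2.01 in STZ libraries. Il20rb, a receptor chain of the interleukin 20 family, had 4.10, 3.81 and 10 in control and 3.71, 2.97 and 2.01 in STZ libraries. Tnfsf11, which encodes RANKL, had 0 reads in each control and 1 read in each STZ library. None of the 4 reached the mean of 5 required for the test.

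The libraries of a number shared an order in many members. Replicate 3 was the lowest library of both groups for 18 of the 59 tested members, or 30.5%, among them Il15, Tlr6, Tnf, Myd88 and Nfkbia, against 19.2% of all features tested. Replicate 1 was the lowest of both groups for 15 members, or 25.4%, among them Il10ra, Il18, Il2rg, Tlr7 and Tnfrsf1b, against 18.8% of all features. Replicate 2 was so for 1 member, Il16, or 1.69%, against 8.04%.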
